A study of Homo sapiens with 16 samples.

Results

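The comparison set cells given 6D7 for 4 h against cells given the solvent DMSO for 4 h, with 2 RNA libraries in each group. Those 4 libraries, chosen by their titles, belong to a series of 16 in which 8 groups hold 2 libraries each. The cells were A549, an established human lung adenocarcinoma line that lacks a working LKB1 kinase, and all groups, DMSO included, carried an overexpressed CD63-Nluc fusion. That fusion joins CD63, a tetraspanin of endosomes and exosomes, to a luciferase, so CD63 reads may include the transgene. The other groups received 5G6 or 7F8 for 4 h, or DMSO or any of the 3 compounds for 48 h. The labels call 6D7, 5G6 and 7F8 inhibitors, give no structure or target, and print 4 µM for every treatment, DMSO included. The series describes the pairs as biological replicates and says no more of their origin, so a p-value reflects only how far these libraries scatter, which may be technical. Exosome release and the AMPK and SREBP proteins stand in the title of the series, and the comparison asks which transcripts differed early after 6D7.

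Background on the gene groups is as follows. When amino acids run short or the endoplasmic reticulum is stressed, kinases that phosphorylate eIF2α favour translation of ATF4, a transcription factor that switches on amino acid synthesis, amino acid import and tRNA charging. On the lysosome surface, the Rag GTPases and the FLCN-FNIP complex report amino acid supply to the growth kinase mTORC1, and TFEB and TFE3 drive transcription of lysosomal genes as well as of FLCN and the Rag genes. SREBP factors leave the endoplasmic reticulum when sterols are low and switch on cholesterol synthesis and fatty acid synthesis, while INSIG1 holds them back. AMPK is a kinase activated by low cellular energy.

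Levels are given in TPM, a share of transcripts corrected for gene length, after mitochondrial genes were left out and each library was rescaled to a common total. Differences are of log2(TPM + 1), so they come out too small for genes at low levels. The 4 libraries held 6.70 to 8.62 aligned gigabases and 13626 to 14238 genes at 1 TPM or more. In DMSO replicates 1 and 2, mitochondrial genes took 29.4 and 22.5 percent of deposited TPM. In 6D7 replicates 1 and 2 they took 28.6 and 19.7 percent, so this share moved with the replicate number rather than with treatment. Most of it was a single mitochondrial tRNA gene, TRNC, at 24.67 and 19.05 percent in DMSO and 23.65 and 16.08 percent in 6D7. All 8 epithelial markers were at 1 TPM or more, with summed levels of 7687 to 8297 TPM. Of 9 markers of alveolar type 2 cells, the cell type A549 is often used to model, 3 reached 1 TPM in any of the 4 libraries, and the defining SFTPB was listed at 0 in all 4. Of 7 fibroblast markers 1 reached 1 TPM, of 10 leukocyte markers 2 did, and of 6 endothelial markers 0 did. The summed fibroblast level was 19.1 and 4.35 TPM in DMSO and 18.1 and 3.45 TPM in 6D7.

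No gene passed the test between 6D7 and DMSO at 4 h. Of 15958 genes tested, limma called 0 at a Benjamini-Hochberg adjusted p below 0.05 (percent called 0), and the smallest adjusted p was 0.483. The unadjusted limma p was below 0.05 for 180 genes, of which 143 were higher with 6D7 (0.896 percent of genes tested) and 37 lower (0.232 percent). Together that is less than the share of 0.05 expected below this threshold if no gene differed, so it is no excess of small p-values. In 1998 genes, 12.5 percent of those tested, both 6D7 libraries lay above both DMSO libraries, and in 1514 genes, 9.49 percent, both lay below. The median difference over all genes tested was 0.01. The median standard error of a gene's difference was 0.31 on the log2 scale. The values below are therefore descriptions, read beside those shares. Between 6D7 and DMSO at 4 h, every adjusted p for a single gene named below is 1.0 unless printed. That rule does not extend to the later contrasts with the other compounds and between the times. There an adjusted p left unprinted can be lower. In bulk RNA, fewer cells of a kind and less RNA per cell cannot be told apart.

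Most genes with an unadjusted p below 0.05 had higher values with 6D7, and several of them belong to the lysosomal amino acid sensing system. UAP1L1, which resembles the enzyme that makes UDP-N-acetylglucosamine, had the smallest p. It lies on chromosome 9 from 137077475 to 137084538, plus strand (GRCh38, as in the deposited tables). It stood at 7.25 and 6.33 TPM in the DMSO libraries and at 33.8 and 27.8 TPM in the 6D7 libraries, a difference of 2.02 ± 0.33 (SE; limma adjusted p = 0.483). FLCN, the folliculin subunit of the complex that acts on RRAGC and RRAGD, lies on chromosome 17 from 17206946 to 17237191, minus strand. It stood at 21.6 and 20.9 TPM in DMSO and at 61.5 and 45.5 TPM in 6D7, a difference of 1.28 ± 0.22 (SE; limma adjusted p = 0.483). In both genes the DMSO libraries were close together and neither 6D7 library came near them.

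STX3, a syntaxin of membrane fusion, stood at 11.9 and 11.5 TPM in DMSO and 30.8 and 25.3 TPM in 6D7, a difference of 1.19 ± 0.23 (SE; limma adjusted p = 0.871). RTN4R, the receptor for the axon growth inhibitor Nogo, stood at 4.01 and 4.50 TPM against 10.9 and 13.0 TPM, a difference of 1.30 ± 0.27 (SE; limma adjusted p = 0.871). PQLC2, a lysosomal exporter of cationic amino acids, stood at 13.8 and 14.6 TPM against 26.2 and 26.5 TPM, a difference of 0.85 ± 0.18 (SE; limma adjusted p = 0.919). The groups did not overlap in these 3 genes. SLC17A5, the lysosomal sialic acid exporter, stood at 9.51 and 11.1 TPM in DMSO and at 24.3 and 21.4 TPM in 6D7. BRI3 stood at 155.7 and 225 TPM in DMSO and at 341 and 335 TPM in 6D7.

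**Figure D1:**
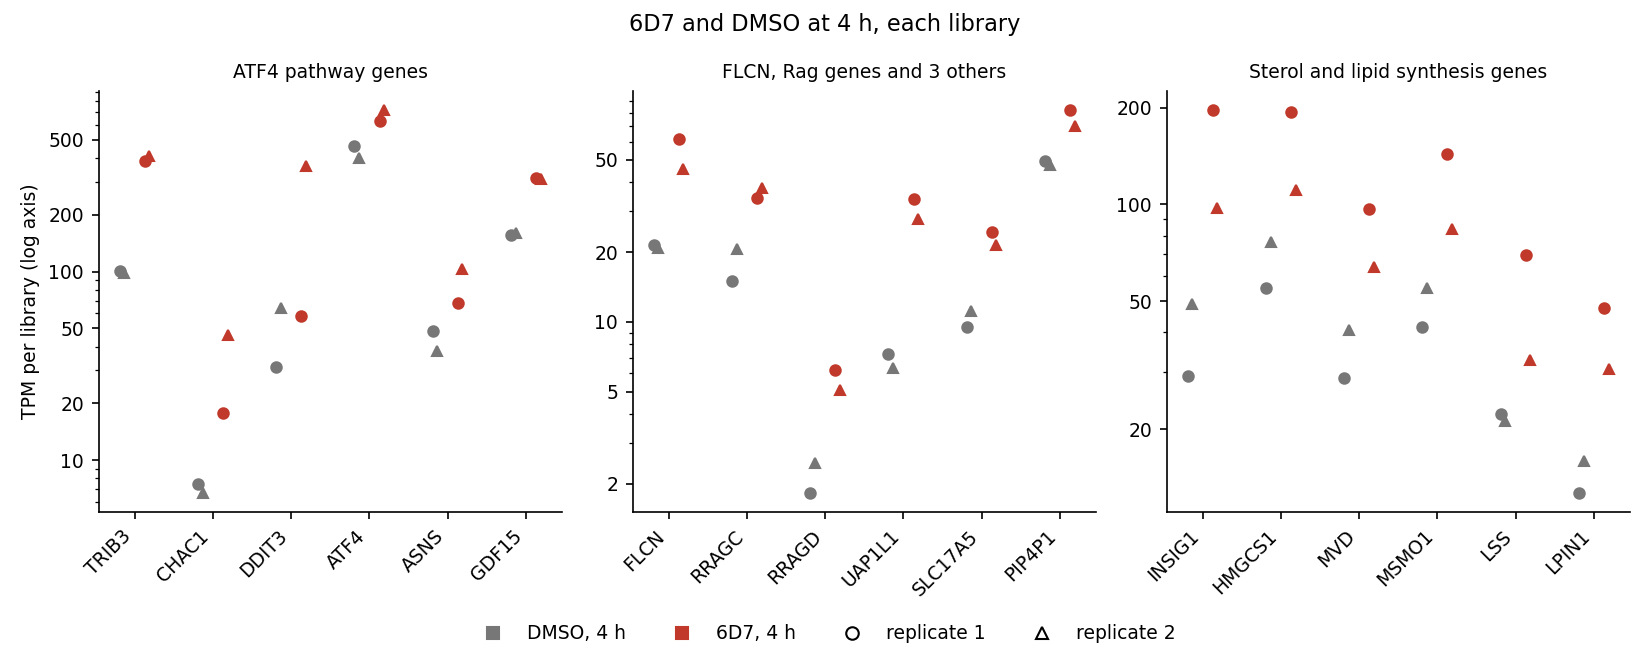
TPM on a log axis for 18 genes in each of the 4 libraries at 4 h, with DMSO in grey and 6D7 in red, circles for replicate 1 and triangles for replicate 2. DDIT3 is the gene whose groups overlap, and in the sterol and lipid genes 6D7 replicate 1 lies above replicate 2.

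The list of FLCN, Rag and TFE genes held 17 genes, all tested. Both 6D7 libraries lay above both DMSO libraries in 10 of them and below in 0, and the list's median difference was 0.22. The unadjusted p was below 0.05 in 5: FLCN, its partner FNIP1, PIP4P1, RRAGC and RRAGD. RRAGC, a Rag GTPase on chromosome 1 from 38838197 to 38859823, minus strand, stood at 15.1 and 20.7 TPM in DMSO and 34.2 and 37.7 TPM in 6D7, a difference of 0.98 ± 0.22 (SE). RRAGD, its close relative on chromosome 6 from 89363509 to 89412276, minus strand, stood at 1.83 and 2.47 TPM against 6.19 and 5.10 TPM, a difference of 1.08 ± 0.25 (SE). FNIP1 stood at 9.87 and 8.75 TPM against 22.6 and 15.8 TPM. PIP4P1, a lysosomal phosphoinositide phosphatase, stood at 49.2 and 47.6 TPM against 82.4 and 69.8 TPM.

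Differences in the rest of that system were smaller. RRAGA stood at 130.7 and 133 TPM in DMSO and 166 and 145 TPM in 6D7, while RRAGB, at 12.7 and 13.1 TPM against 14.6 and 13.1 TPM, overlapped. The transcription factors TFE3 (difference 0.03), TFEB (-0.22) and MITF (0.12) overlapped between the groups. The 5 Ragulator subunits, which anchor the Rag proteins to the lysosome, had differences from -0.04 for LAMTOR5 to 0.24 for LAMTOR1.

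Lysosomal hydrolases and membrane proteins had small differences that mostly pointed the same way. Of 33 tested, 30 had a positive difference (51.8 percent of all genes did), 11 had both 6D7 libraries above both DMSO libraries and 0 had both below, with a median of 0.16. NEU1, a lysosomal sialidase on chromosome 6 from 31859052 to 31862932, minus strand, had the largest difference (0.76), at 25.7 and 22.9 TPM in DMSO against 50.3 and 34.8 TPM in 6D7. CTSL, a cysteine protease, stood at 723 and 706 TPM against 1128 and 890.1 TPM. LAMP1, a membrane glycoprotein, stood at 94.7 and 90.6 TPM against 110.1 and 96.5 TPM. Of 15 subunits of the proton pump that acidifies lysosomes, 9 lay above in both libraries and 0 below (median 0.20, highest 0.42 for ATP6V1H). The 21 autophagy genes tested had 9 above and 0 below, among them SQSTM1, the receptor p62, at 787 and 1132 TPM against 1401 and 1637 TPM. The lysosomal median was 0.29 in 6D7 replicate 1 and 0.02 in replicate 2, each against the DMSO mean, and that of the FLCN list 0.33 and 0.08.

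Most measured genes of the ATF4 pathway had higher values in both 6D7 libraries. Of 25 regulators and stress genes tested, both 6D7 libraries lay above both DMSO libraries in 17 and below in 1, with a median of 0.65 against 0.01 over all genes. The difference was at least 2-fold in 8 (0.52 percent of all genes), and the unadjusted p was below 0.05 in 8. TRIB3, a pseudokinase induced by ATF4 and acting back on it, lies on chromosome 20 from 380629 to 397559, plus strand. It stood at 101 and 98.1 TPM in DMSO and at 388 and 408 TPM in 6D7, a difference of 1.99 ± 0.41 (SE; limma adjusted p = 0.871). ATF4 itself stood at 461.5 and 399 TPM against 630.0 and 723 TPM, a difference of 0.65. CHAC1, which degrades glutathione and lies on chromosome 15 from 40942137 to 40956519, plus strand, stood at 7.46 and 6.69 TPM against 17.7 and 45.8 TPM.

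Some stress-signalling genes of that list, DDIT3 and SESN2 among them, varied widely between the 6D7 libraries, and others were closer together. DDIT3, the transcription factor CHOP, stood at 31.3 and 64.0 TPM in DMSO and 57.9 and 362 TPM in 6D7, so 6D7 replicate 1 lay below DMSO replicate 2 and the groups overlapped. SESN2, a leucine-sensing inhibitor of mTORC1 signalling, stood at 5.57 and 4.74 TPM against 8.02 and 19.6 TPM. GDF15, a secreted stress hormone, was even across libraries, at 156 and 160.2 TPM in DMSO and 316 and 311 TPM in 6D7. NUPR1, a stress-induced transcription regulator, stood at 16.4 and 16.1 TPM against 29.9 and 37.8 TPM. PPP1R15A, the phosphatase subunit that ends eIF2α phosphorylation, stood at 57.6 and 88.0 TPM against 144 and 199 TPM. Among the eIF2α kinases, EIF2AK3 (PERK) stood at 14.8 and 15.8 TPM against 22.9 and 24.5 TPM, and EIF2AK4 (GCN2) at 15.7 and 14.5 TPM against 12.2 and 13.4 TPM, the member with both 6D7 libraries below.

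Enzymes and transporters that supply amino acids had smaller differences. Of 22 enzymes of amino acid and one-carbon synthesis, both 6D7 libraries lay above in 12 and below in 0 (median 0.37). ASNS, asparagine synthetase, stood at 48.3 and 37.7 TPM in DMSO and 68.2 and 103 TPM in 6D7, a difference of 0.96. The 3 enzymes of serine synthesis, PHGDH (difference 0.74), PSAT1 (0.63) and PSPH (0.68), each had separate groups. Mitochondrial MTHFD2 stood at 114 and 121 TPM against 142.5 and 259.8 TPM, whereas its cytosolic relative MTHFD1 had a difference of -0.07 with overlapping groups. Of 13 amino acid transporters tested, 6 lay above and 0 below (median 0.34), with SLC3A2, the heavy chain of several transporters, at 1013 and 974 TPM against 1311 and 1291 TPM. SLC7A11, the cystine importer, overlapped, with a difference of 0.05.

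Cytosolic tRNA synthetases, which charge tRNAs with amino acids, were uneven. Of 20 tested, 11 lay above in both 6D7 libraries and 2 below, with a median of 0.235, and the unadjusted p was below 0.05 in 5: AARS, CARS, GARS, SARS and YARS. AARS, for alanine, stood at 163 and 138 TPM in DMSO and 232 and 258 TPM in 6D7, a difference of 0.70. KARS, for lysine, and HARS, for histidine, lay below in both 6D7 libraries, with differences of -0.12 and -0.07. The ATF4 list had a median of 0.42 in 6D7 replicate 1 and 0.75 in replicate 2, so here the second library was the higher.

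Stretches of promoter are shown for members of the ATF4 pathway, tRNA synthetase, amino acid synthesis, lysosomal and proton pump lists. Not all members of those lists lay above DMSO. RefSeq gives windows of 250 bases before to 50 after the start for part of them (GRCh38.p14). Capitals mark TGATGNAA or its reverse complement, the core of the element bound by ATF4 with C/EBP factors, or TCACGTGA, an E-box found near lysosomal genes; both strands were searched. The first 3 lines are CHAC1 at chr15:40953232-40953299 on the plus strand, AARS (AARS1 in RefSeq) at chr16:70289656-70289723 on the minus strand and GOT1, a transaminase, at chr10:99430785-99430852 on the minus strand. The last 3 are LAMP1 at chr13:113297180-113297238 on the plus strand, the protease CTSA at chr20:45891279-45891334 on the plus strand and the pump subunit ATP6V0D1 at chr16:67481180-67481247 on the minus strand. The CHAC1 stretch lies inside the span given above for that gene, which begins at 40942137, so RefSeq uses a start further downstream there.
CHAC1: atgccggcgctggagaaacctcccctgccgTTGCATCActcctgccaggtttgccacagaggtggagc
AARS: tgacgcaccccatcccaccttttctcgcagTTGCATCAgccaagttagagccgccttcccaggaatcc
GOT1: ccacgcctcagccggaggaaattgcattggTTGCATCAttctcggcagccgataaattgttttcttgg
LAMP1: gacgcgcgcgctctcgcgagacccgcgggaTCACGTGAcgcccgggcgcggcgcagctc
CTSA: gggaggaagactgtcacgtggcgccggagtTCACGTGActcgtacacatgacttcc
ATP6V0D1: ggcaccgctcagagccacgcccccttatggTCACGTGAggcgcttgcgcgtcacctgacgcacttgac

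TGATGNAA was present in the windows of 3 of 15 ATF4 pathway regulators matched, 3 of 9 tRNA synthetases, 1 of 10 amino acid synthesis enzymes and 1 of 4 transporters, against 3.85 percent of all 22114 promoters of the table and 1.6 percent of the 8578 that matched a gene tested. TCACGTGA was present in 4 of 20 lysosomal genes matched, 2 of 8 proton pump subunits and 1 of 9 genes of the FLCN list (RRAGB), against 1.02 and 1.96 percent. It was present in 0 of 12 autophagy genes, and also in INSIG1 and BBC3, which belong to other lists. A sterol regulatory element, searched as TCACNCCAC, was present in 1.16 percent of all promoters and 1.1 percent of those that matched a gene tested. Of 10 mevalonate enzymes 4 were matched and 0 had it, and of 12 later enzymes 8 were matched and 0 had it. It was present in 1 of 7 SREBP factors and regulators matched (SREBF2) and 1 of 11 fatty acid synthesis genes (MID1IP1). It was present in 0 of 5 genes of cholesterol uptake and in 1 of 10 amino acid synthesis enzymes (GOT1). A match is a description of the letters in the window and no evidence of binding.

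Most genes of cholesterol synthesis lay above DMSO in both 6D7 libraries, with replicate 1 well above replicate 2. Of 10 mevalonate pathway enzymes, 8 had both 6D7 libraries above both DMSO libraries and 0 below (median 0.81), and of 12 enzymes from squalene to cholesterol 8 and 0 (median 0.55). All 22 had a positive difference. HMGCS1, which makes HMG-CoA, on chromosome 5 from 43287470 to 43313512, minus strand, stood at 54.8 and 76.5 TPM in DMSO and at 194 and 111 TPM in 6D7. MVD, a decarboxylase of the same pathway, stood at 28.7 and 40.7 TPM against 97.0 and 63.7 TPM. MSMO1, a sterol demethylase, stood at 41.5 and 55.1 TPM against 144 and 83.8 TPM, and LSS, which closes the sterol rings, at 22.2 and 21.2 TPM against 69.7 and 32.8 TPM. The mevalonate median was 1.10 in 6D7 replicate 1 and 0.51 in replicate 2, and that of the later enzymes 0.83 and 0.23.

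Upstream of these enzymes, the SREBP regulator INSIG1 separated the groups and the SREBP genes did not. INSIG1, on chromosome 7 from 155297772 to 155310235, plus strand, stood at 29.2 and 49.1 TPM in DMSO and 197 and 97.7 TPM in 6D7, a difference of 1.85. SREBF1 stood at 156 and 123 TPM against 164 and 142.5 TPM, and SREBF2 at 61.3 and 39.7 TPM against 92.3 and 45.2 TPM, both with overlapping groups. SCAP, the escort of SREBP, and the proteases MBTPS1 and MBTPS2 had differences of 0.04, 0.02 and 0.08 and overlapped. MYLIP, a ubiquitin ligase induced by LXR, stood at 6.86 and 3.46 TPM in DMSO and 2.38 and 2.13 TPM in 6D7, a difference of -0.86.

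Lipid genes beyond sterols were mixed. Of 19 fatty acid synthesis genes tested, 6 lay above in both 6D7 libraries and 0 below, with a median of 0.35 that was 0.68 in 6D7 replicate 1 and 0.07 in replicate 2. LPIN1, a phosphatidate phosphatase on chromosome 2 from 11677544 to 11827409, plus strand, stood at 12.7 and 15.96 TPM in DMSO and 47.4 and 30.7 TPM in 6D7, a difference of 1.36. FASN, the fatty acid synthase, stood at 109 and 77.4 TPM against 230.5 and 106 TPM, and SCD, a desaturase, at 524 and 342 TPM against 1143 and 504 TPM, so both overlapped. NPC1, which exports cholesterol from lysosomes, stood at 25.7 and 20.7 TPM against 67.0 and 28.7 TPM. ABCA1, a cholesterol exporter driven by LXR, had a difference of -0.24, and of 8 LXR targets tested 1 lay above and 2 below.

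**Figure D2:**
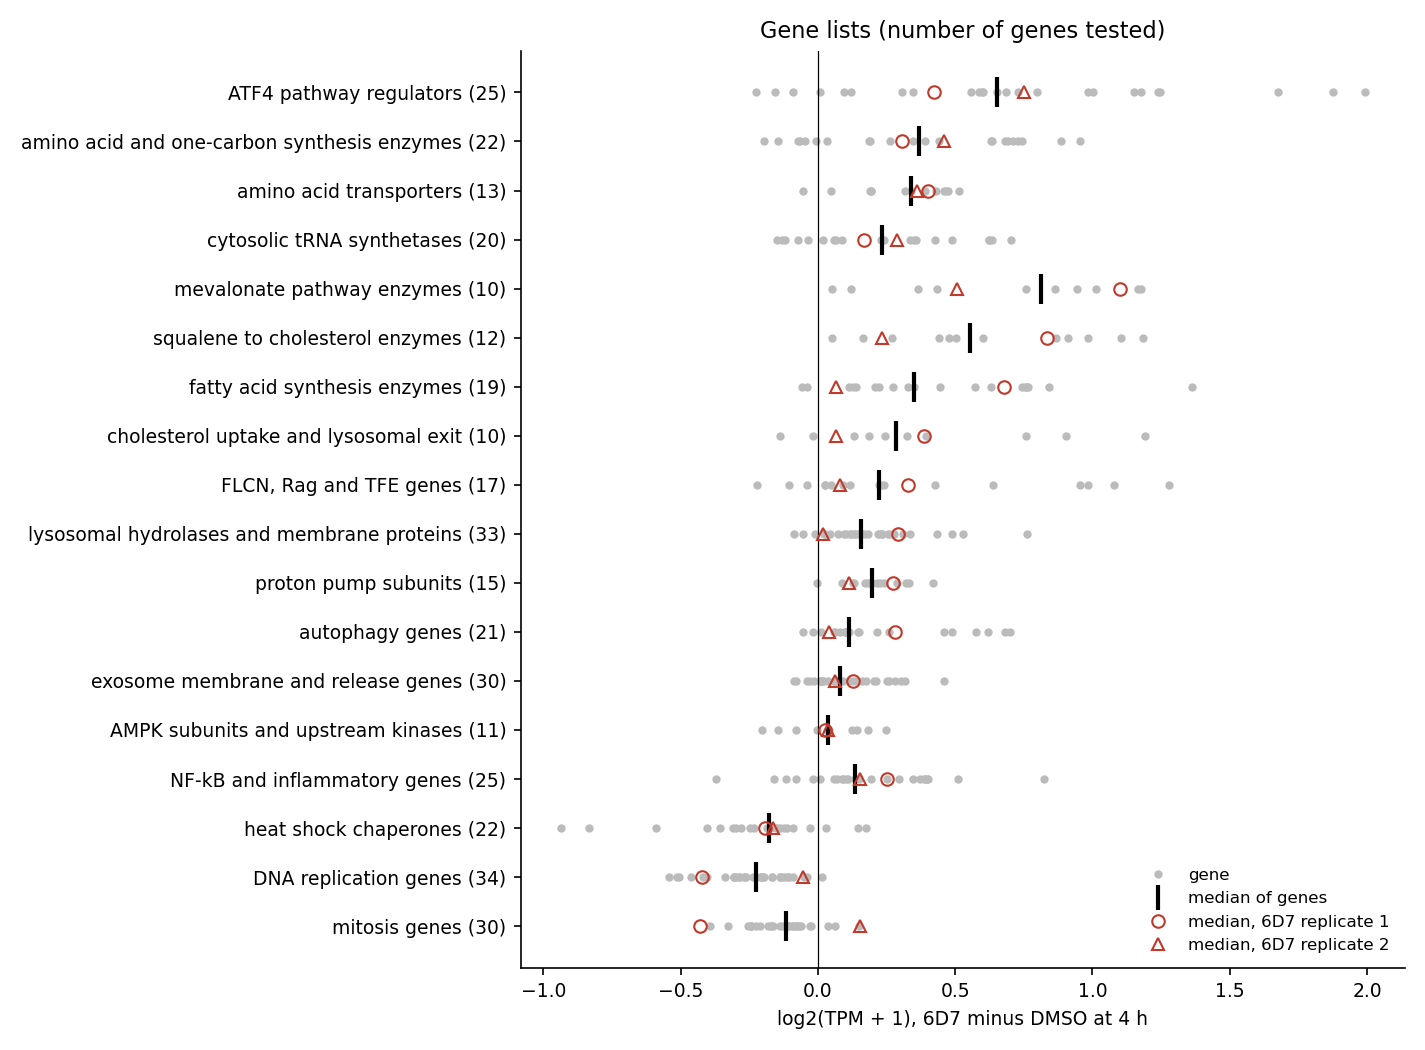
Difference on the log2(TPM + 1) scale between 6D7 and DMSO at 4 h for the genes of 18 lists; grey points are genes, the bar is the list's median, and the open red circle and triangle are the medians of 6D7 replicates 1 and 2 against the DMSO mean. The mevalonate median is 0.81 and the DNA replication median -0.22, and the library medians of mitosis genes lie on opposite sides of 0.

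Exosome and AMPK genes, whose proteins the series title names, had small differences at 4 h. Of 30 exosome membrane and release genes tested, 6 lay above in both 6D7 libraries and 0 below, with a median of 0.08 and a highest difference of 0.46. That gene was RAB27B, a GTPase that docks multivesicular bodies, at 25.9 and 31.3 TPM in DMSO and 36.0 and 43.4 TPM in 6D7. SDCBP, the exosome adaptor syntenin, stood at 170.3 and 188 TPM against 221 and 222 TPM. CD63 stood at 1697 and 1406 TPM against 2104 and 1522 TPM, and RAB27A at 6.85 and 8.91 TPM against 7.97 and 8.82 TPM, both overlapping. The 11 AMPK subunits and upstream kinases tested had a median of 0.04, with PRKAA1, a catalytic subunit, at 34.8 and 34.1 TPM against 32.3 and 32.8 TPM. TXNIP, an arrestin that answers to glucose, overlapped, with a difference of 0.20.

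Among the named genes with lower values in 6D7, C17orf97 had the smallest p. It was listed at 7.26 and 5.70 TPM in DMSO and at 0 in both 6D7 libraries at 4 h. At 48 h it was at 7.35 and 8.47 TPM in DMSO and again at 0 in both 6D7 libraries. With the other compounds at 4 h it was at 7.67 and 7.58 TPM (5G6) and at 7.175 and 0 TPM (7F8). In these tables a listing at 0 can be a failed estimate, since genes such as MALAT1 and NEAT1 are at 0 too, and ZNHIT2 was listed at 37.6 and 31.3 TPM in DMSO but at 0 and 29.0 TPM in 6D7. Of 22 heat shock chaperones, both 6D7 libraries lay below both DMSO libraries in 9 and above in 1, with a median of -0.18 that was -0.19 in replicate 1 and -0.16 in replicate 2. HSPA8, the constitutive HSP70, stood at 1793 and 1537 TPM against 1435 and 847.5 TPM, a difference of -0.59. DNAJA1, its co-chaperone, stood at 475 and 430.0 TPM against 387 and 301 TPM. HSPA1A and HSPA1B, near-identical copies whose reads cannot be assigned with certainty, had wide and overlapping values.

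DNA replication genes had slightly lower values. Of 34 tested, both 6D7 libraries lay below in 12 and above in 0, with a median of -0.22, which was -0.42 in 6D7 replicate 1 and -0.05 in replicate 2. MCM5, part of the replicative helicase, stood at 87.4 and 75.9 TPM in DMSO and 57.8 and 65.0 TPM in 6D7. UHRF1, which maintains DNA methylation at replication, stood at 57.8 and 50.7 TPM against 34.6 and 40.9 TPM. PCNA, the sliding clamp, stood at 636 and 712 TPM against 509 and 618 TPM. The 30 mitosis genes tested had 0 above and 0 below, with a median of -0.43 in replicate 1 and 0.15 in replicate 2.

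The 6D7 libraries were set beside those of 5G6 and 7F8 at the same time and labelled dose, in 2 direct contrasts, each adjusted over all genes tested. The compounds are known by code name, so no structural difference is given. Against 5G6, limma called 0 genes (percent called 0; 190 at an unadjusted p below 0.05, 42 higher and 148 lower with 6D7), with a smallest adjusted p of 1.0. Against 7F8 it called 0 (percent called 0; 920 at an unadjusted p below 0.05, 714 higher and 206 lower), with a smallest adjusted p of 0.163. A p that misses the threshold does not show that the compounds act alike, so intervals at 95% are given for the named genes. Both 6D7 libraries lay above both 5G6 libraries in 6.14 percent of genes and below in 18.4 percent, and above both 7F8 libraries in 24.8 percent and below in 8.68 percent. The median over all genes was -0.10 against 5G6 and 0.12 against 7F8.

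Sterol genes had lower values with 6D7 than with 5G6 and higher values than with 7F8. MSMO1 stood at 267 and 193 TPM with 5G6 and at 34.5 and 51.5 TPM with 7F8, against the 144 and 83.8 TPM of 6D7. The difference of 6D7 from 5G6 was -1.04 (95% interval -2.12 to 0.04) and that from 7F8 was 1.36 (0.28 to 2.44), before adjustment over genes. LPIN1, at 72.2 and 86.4 TPM with 5G6 and 10.3 and 17.4 TPM with 7F8, differed by -1.03 (-1.83 to -0.24) and 1.44 (0.65 to 2.24). Of the 10 mevalonate enzymes, 6D7 lay below 5G6 in 6 and above 7F8 in 8, and of the 12 later enzymes in 10 and 10. The medians were -0.75 and 0.61 for the former, and -0.77 and 0.745 for the latter.

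ATF4 pathway genes gave a mixed picture. Of the 25 regulators, 6D7 lay above both 5G6 libraries in 2 and below in 2, and above both 7F8 libraries in 7 and below in 3, shares near those of all genes for 7F8. TRIB3 stood at 508 and 391 TPM with 5G6 and 129 and 39.8 TPM with 7F8. The difference of 6D7 was -0.16 from 5G6 (95% interval -1.06 to 0.74; limma adjusted p = 1.0) and 2.46 from 7F8 (1.56 to 3.36; limma adjusted p = 0.266). CHAC1 stood at 20.01 and 49.1 TPM with 5G6 and 7.89 and 5.32 TPM with 7F8, with differences of -0.13 (-1.15 to 0.88) and 1.98 (0.97 to 2.996). ASNS departed from this order, at 50.1 and 47.5 TPM with 5G6 and 54.3 and 47.2 TPM with 7F8, below both 6D7 libraries in each case, with differences of 0.77 (0.23 to 1.31) and 0.72 (0.17 to 1.26). Of the 20 tRNA synthetases, 6D7 lay above 5G6 in 5 and below in 0, and above 7F8 in 15 and below in 0. Of the 22 amino acid and one-carbon enzymes, it lay above 5G6 in 5 and below in 0, and above 7F8 in 14 and below in 1.

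Of the 17 FLCN, Rag and TFE genes, 6D7 lay above 5G6 in 1 and below in 3, and above 7F8 in 12 and below in 0. UAP1L1, which is not in that list, stood at 43.9 and 36.7 TPM with 5G6 and 11.5 and 4.64 TPM with 7F8, with differences of -0.38 (95% interval -1.11 to 0.35) and 1.91 (1.18 to 2.64; limma adjusted p = 0.266). RRAGD stood at 6.44 and 6.17 TPM with 5G6 and 1.84 and 2.36 TPM with 7F8, with differences of -0.14 (-0.69 to 0.40) and 1.10 (0.56 to 1.65). FLCN was higher than DMSO with all 3 compounds, at 62.9 and 72.9 TPM with 5G6 and 50.03 and 34.7 TPM with 7F8, and its differences were -0.35 (-0.83 to 0.13) and 0.34 (-0.14 to 0.82), with 6D7 and 7F8 overlapping. Without 7F8 replicate 1 the contrast with 7F8 called 19 genes, TRIB3 and UAP1L1 among them, and without 7F8 replicate 2 it called 3, with neither among them.

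Inflammatory genes separated 6D7 from 7F8 in the other direction. Of 25 NF-kB and inflammatory genes, 6D7 lay below 7F8 in both libraries in 15 and above in 1, with a median of -1.06. SOD2, the mitochondrial superoxide dismutase, stood at 189 and 210.5 TPM in DMSO, 374 and 336 TPM with 6D7, 391.5 and 383 TPM with 5G6, and 815 and 886 TPM with 7F8. The difference of 6D7 from 7F8 was -1.26 (95% interval -1.87 to -0.64), and from 5G6 -0.13 (-0.74 to 0.49). Against DMSO the same list had 9 above and 2 below with 6D7 and a median of 0.135.

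**Figure D3:**
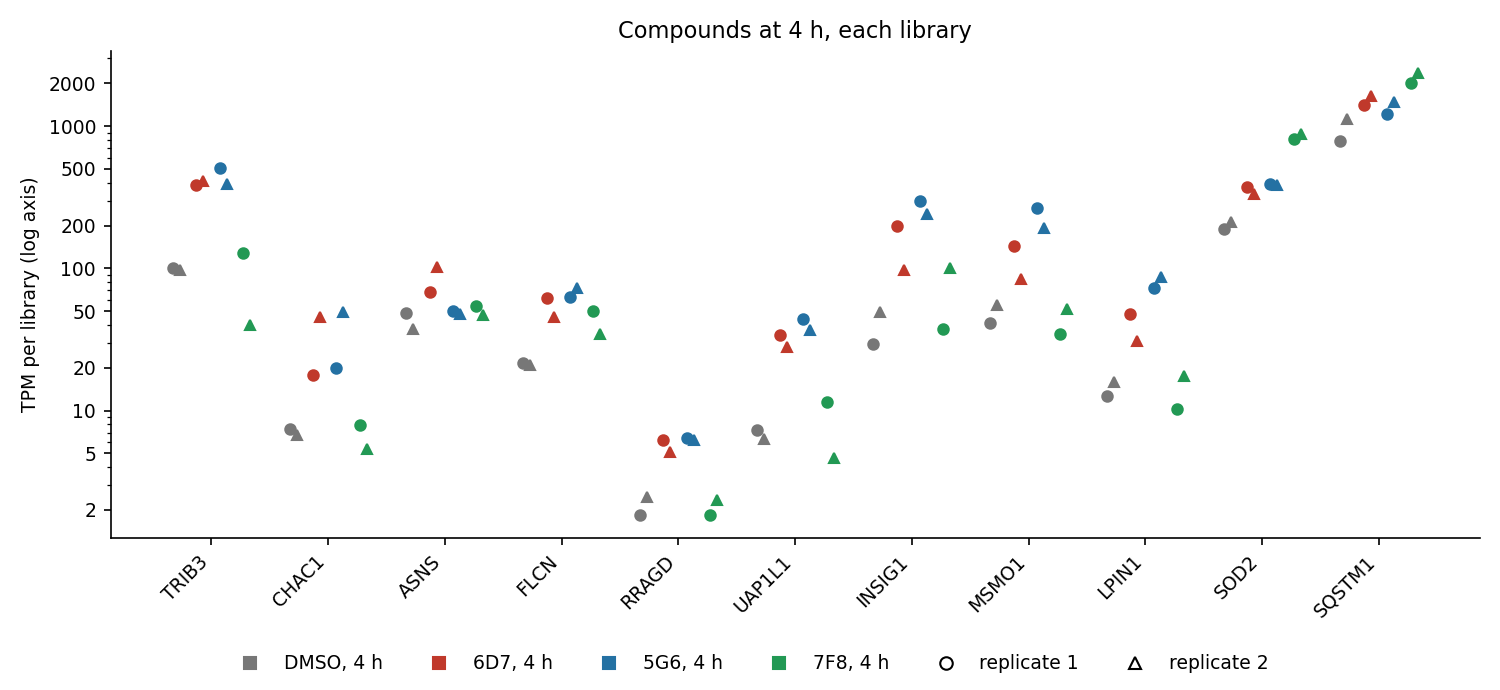
TPM on a log axis for 11 genes in the 8 libraries collected at 4 h, with DMSO in grey, 6D7 in red, 5G6 in blue and 7F8 in green, circles for replicate 1 and triangles for replicate 2. MSMO1 and LPIN1 are ordered 5G6 above 6D7, whereas SOD2 is highest with 7F8, at 815 and 886 TPM.

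The 48 h groups served to ask whether the difference from DMSO was the same size later. Limma called 0 genes for the difference at 48 h minus that at 4 h (percent called 0; 1236 at an unadjusted p below 0.05), with a smallest adjusted p of 0.0645. Without 6D7 replicate 2 at 48 h it called 176. The 48 h comparison itself called 381 genes higher with 6D7 (2.39 percent) and 572 lower (3.58 percent), and the 6D7 libraries at 48 h stood apart in mitochondrial share, at 6.13 and 6.48 percent of deposited TPM. TRNC, a mitochondrial tRNA gene, was listed at 0 in both and took 26.1 and 24.3 of the 31.0 and 29.0 percent in DMSO at 48 h. The gap between the groups was thus no larger than the share of TRNC alone. As with other genes, a listing at 0 can be a failed estimate, which was not tested. Mitochondrial genes were left out before rescaling, and with them kept the contrast of the times called 6 genes. TRNC, lower in that contrast (-17.8), and TRNY, higher (12.4), were among them.

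The genes named above for the ATF4 and lysosomal systems varied in how their 48 h differences compared with those at 4 h. TRIB3 stood at 85.2 and 118 TPM in DMSO and 455 and 645 TPM in 6D7 at 48 h, and its difference of 2.42 exceeded that at 4 h by 0.43 (95% interval -0.84 to 1.71; limma adjusted p = 0.942). GDF15 stood at 114.5 and 149.8 TPM against 777 and 483 TPM, exceeding its 4 h difference by 1.24 (0.48 to 1.99; limma adjusted p = 0.403). RRAGD stood at 2.19 and 2.89 TPM against 15.1 and 19.1 TPM, exceeding by 1.27 (0.50 to 2.04; limma adjusted p = 0.403). FLCN stood at 28.2 and 33.4 TPM against 53.2 and 56.5 TPM, and its 48 h difference was lower than at 4 h by an estimate of -0.46 (-1.14 to 0.22). ASNS stood at 39.8 and 40.3 TPM against 51.8 and 54.9 TPM, with an estimate of -0.55 (-1.32 to 0.22).

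Amino acid enzymes and sterol enzymes went different ways in their medians. The median of the amino acid and one-carbon list was 0.37 at 4 h and 0.10 at 48 h, when 0 of 22 were called higher and 1 lower, and the median of the gene-wise differences between the times was -0.32. The mevalonate median was 0.81 at 4 h and 1.76 at 48 h, when 7 of 10 were called higher and 0 lower, and the median of the gene-wise excess was 1.07. INSIG1 at 48 h stood at 38.6 and 32.0 TPM in DMSO and 463 and 313 TPM in 6D7, an excess over 4 h of 1.56 (95% interval -0.21 to 3.32). Of 34 DNA replication genes, 30 were called lower at 48 h, with a median of -2.22 against the -0.22 at 4 h. MCM5 shows this in the plot of both times, with 48 h DMSO values near those at 4 h and 48 h 6D7 values far below.

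**Figure D4:**
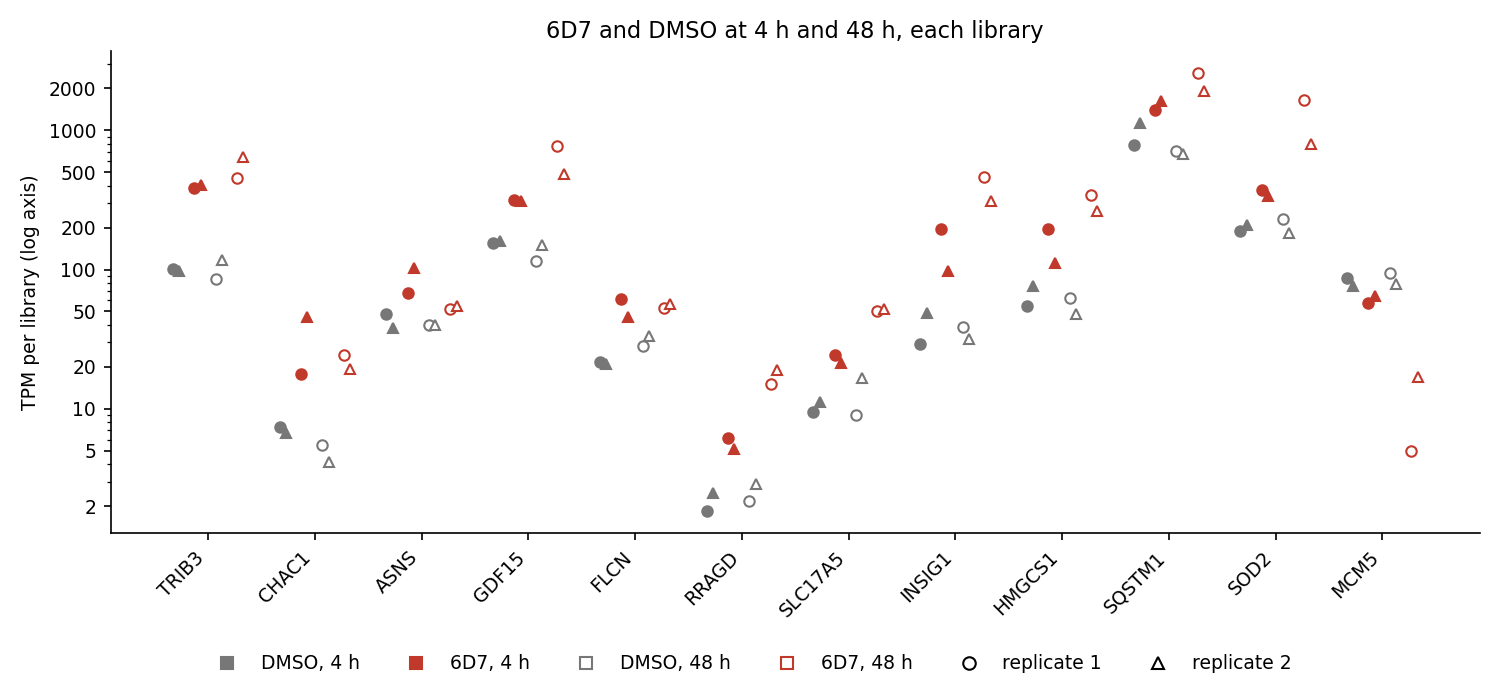
TPM on a log axis for 12 genes in the DMSO (grey) and 6D7 (red) libraries at 4 h (filled) and 48 h (open), circles for replicate 1 and triangles for replicate 2. TRIB3 in 6D7 is at 388 and 408 TPM at 4 h and 455 and 645 TPM at 48 h, and MCM5 is low in 6D7 at 48 h.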

How the data were processed

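PolyA RNA of A549 cells was sequenced from 16 libraries. Tools named in the submitters' processing notes are StringTie 2.0, featureCounts 1.6.3 and STAR 2.6.1a, and the build is GRCh38; their roles are not stated. Strandedness is not given in the sources used here, so reads of overlapping or antisense genes cannot be told apart. TPM values were deposited by the authors in 1 gene abundance table per library. FPKM values, deposited beside them, are proportional to TPM in each table. A column of read coverage per gene (named so per the file headers) gave, with FPKM, the aligned gigabases, the only measure of depth.

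TPM was summed by gene name, genes on chromosome M were dropped, and each library was rescaled to a common total. Of 39550 genes, 26156 had TPM above 0, and 15958 were tested, those that reached TPM 1 in 2 or more of the 16 libraries. All libraries entered 1 limma fit (version 3.58.1, R 4.3.3) of log2(TPM + 1) on 8 groups, which left 8 residual degrees of freedom, with a trend of variance on level. Tests were two-sided, Benjamini-Hochberg adjusted within a comparison and called below 0.05. The scripts were tested on simulated data. Tables and figures used Python 3.11.15, pandas 2.3.3, numpy 2.4.6 and matplotlib 3.10.9.

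The members and the 36 gene lists were chosen with earlier results of these data known. Named genes had both 6D7 libraries above or below both DMSO libraries and a mean of at least 5 TPM in the higher group: the 12 smallest p and 5 largest differences each way, up to 3 in each list, and 15 genes always; 2 of the genes so named are not reported here. Other list members are named as examples chosen after their values were seen. Alternatives were no filter, a filter within the libraries compared, a pseudocount of 0.1, median-of-ratios scaling, TPM as deposited, variance without trend, fewer libraries in the fit, a replicate block and leaving out each library.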

Additional observations from a re-analysis of the deposited data

How the results depend on the processing

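For 6D7 against DMSO at 4 h, limma called 0 genes with the other filter, scalings, variance model and smaller fits tried and with a replicate block (269 genes at an unadjusted p below 0.05), and 1 gene each without a filter and with a pseudocount of 0.1. Leaving out 1 library gave 0 to 1, the 1 being ZNHIT2 (-5.14) without 6D7 replicate 2, where 1 library is listed at 0 and the lone sample is assumed to vary like the others. Against 5G6 the count was 1 in the 4 h libraries alone, 14 without a filter, 3 with a pseudocount of 0.1 and 0 to 1 leaving out a library. Against 7F8 these were 1, 5, 1 and 0 to 19, with 19 without 7F8 replicate 1 and 3 without replicate 2. The replicate block gave 0 for both (306 and 1491 genes at an unadjusted p below 0.05). For the 48 h minus the 4 h difference the count was 16 without a filter, 6 with TPM as deposited, 3 without the variance trend, 4 with the replicate block and 0 to 176 leaving out a library, 176 without 6D7 replicate 2 at 48 h. Replicate numbers are not known to pair samples: deviations of same-numbered libraries correlated at 0.588 between 6D7 and DMSO at 4 h, at 0.355 to 0.588 among the 4 h groups, and at 0.054 to 0.588 over the 28 pairs of groups. DDIT3, SREBF1, SREBF2, CD63, TXNIP, FASN, SCD and HMOX1, whose groups overlap, were higher with 6D7 within each replicate number at 4 h. ABCA1, which overlaps too, was lower within each, at 2.07 and 2.99 TPM in DMSO and 1.80 and 2.14 TPM in 6D7. The share of all genes with either pattern was not computed, so these are examples only. RAB27A, which also overlaps, was higher within replicate number 1 only. The direction turned for CD63 (-0.022 to 0.446 leaving out a library; -0.022 without 6D7 replicate 1), RAB27A (-0.078 to 0.258; -0.078 without DMSO replicate 1), SREBF1 (-0.03 to 0.31; -0.03 without DMSO replicate 2), SREBF2 (-0.12 to 0.89; -0.12 without 6D7 replicate 1) and TXNIP (-0.12 to 0.53; -0.08 without 6D7 replicate 1, -0.12 without DMSO replicate 2), all with overlapping groups. Of 1586 recomputed values of 122 named genes 1579 kept direction and call, and of 468 list medians 431 moved by less than the spread between libraries. Much of this was fixed in advance. The filters, smaller fits, replicate block and variance model leave a gene's difference unchanged, and the main fit had 0 calls to lose. Only the scalings, the pseudocount and leaving out a library could move a gene's difference. The cause of the moves was not tested. With 2 libraries a group, and no read counts, precision is limited.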

Other observations

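Gene groups outside the comparisons above had the following values for 6D7 against DMSO at 4 h, to be read beside the shares of all genes tested (12.5 percent above, 9.49 percent below). Chaperones of the endoplasmic reticulum and XBP1 targets had 7 of 23 genes with both 6D7 libraries above and 0 below, with a median difference of 0.16. ERN1, the stress sensor IRE1, stood at 6.55 and 3.94 TPM in DMSO and 11.4 and 8.83 TPM in 6D7, and its target DNAJB9 at 33.4 and 33.1 TPM against 42.4 and 70.7 TPM. Of 17 hypoxia targets 4 lay above and 0 below, among them the angiogenic factor VEGFA at 26.9 and 21.6 TPM against 36.7 and 39.1 TPM. Of 22 genes of glycolysis and glucose transport 6 lay above and 0 below, with a median of 0.02. The enolase ENO2 stood at 39.7 and 38.0 TPM against 76.6 and 53.5 TPM.

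Immediate early genes had 5 of 29 above and 0 below, and the phosphatase DUSP5, which acts on ERK, stood at 80.0 and 67.3 TPM against 132 and 109 TPM. JUND was listed at 106 and 97.0 TPM in DMSO and at 0 and 113 TPM in 6D7. As with ZNHIT2 above, that listing at 0 can be a failed estimate. Of 14 YAP and TEAD targets 3 lay above and 1 below, with ANKRD1 at 2.77 and 8.94 TPM against 11.9 and 30.5 TPM. NFIL3, a clock regulator, stood at 12.9 and 14.7 TPM against 21.4 and 29.5 TPM, and 3 of 15 clock genes lay above. Of 18 p53 targets 5 lay above and 1 below. NRF2 targets had 1 of 22 above and 1 below, and HMOX1, which degrades haem, stood at 459 and 312 TPM against 955 and 451 TPM with overlapping groups.

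Groups tied to growth had small differences. Ribosome biogenesis factors had 7 of 29 below and 0 above (median -0.09), cytosolic ribosomal proteins 6 of 35 below (median -0.04) and nuclear-encoded respiratory chain subunits 5 of 30 below (median -0.02). Mitochondrial protein stress genes had 4 of 17 above and 3 below. Polyamine and nucleotide salvage enzymes had 1 of 10 above and 1 below. Of 20 interferon-stimulated genes, 7 glucose-sensing arrestin genes and 6 metallothionein and zinc transport genes tested, 0 lay above and 0 below. The interferon list's median was 0.59 in 6D7 replicate 1 and -0.64 in replicate 2, so the 6D7 libraries lay on opposite sides of the DMSO mean.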
